A study of Mus musculus with 26 samples.

Results

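Spermatogonia are the mitotic germ cells at the base of the seminiferous tubule. The 10 genes followed here were chosen by symbol because they mark or act in these cells, out of the 23337 genes counted in every sample. They are *Gfra1*, *Nanos2*, *Nanos3*, *Id4*, *Zbtb16*, *Sall4* and *Lin28a*, which are associated with stem and undifferentiated spermatogonia, and *Kit*, *Stra8* and *Dmrt1*, which are associated with spermatogonial differentiation and the entry into meiosis. RNA-seq of 26 samples compared wild-type (WT) mice with ArKI mice, whose endogenous X-linked androgen receptor gene carries arginine codons in place of the lysine codons at both major SUMOylation sites, in the testis (3 WT and 3 ArKI samples), the initial segment (IS) of the epididymis (5 and 5) and the caput epididymidis (5 and 5). All mice were 3 months old and of the strain labelled C57Bl/6N; 129 hybrid, named 129S6BF1;C57Bl/6N in the reporting form on animals. The methods name 5 ArKI and 5 WT mice for both segments, so that IS and caput samples share animals that the labels do not match. The knock-in came from targeted embryonic stem cells and needed no Cre, so that every cell of an ArKI male carries the altered gene. Germ cells were not isolated. The whole testis was used, and fewer spermatogonia and less RNA per spermatogonium cannot be told apart in such bulk samples.

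Spermatogonial stem cells respond to GDNF from Sertoli cells through the receptor GFRA1 and its partner RET, and factors such as ZBTB16 (PLZF), ID4 and NANOS2 help to keep them undifferentiated. Under retinoic acid the cells begin to express the receptor tyrosine kinase KIT, whose ligand is also made by Sertoli cells, and then STRA8, which is required for meiosis. Androgens act on spermatogenesis mainly through Sertoli, Leydig and peritubular cells, since germ cells lack the androgen receptor.

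The testis samples held 14077013 to 21376604 counts, the IS samples 5829074 to 9770625 and the caput samples 4125768 to 11913469. A level of 3 counts, taken as the smallest signal this depth can show, amounted to between 0.172 and 0.258 counts per 1000000 counts (CPM) in the testis and between 0.238 and 0.641 CPM in the epididymis, with the TMM factors used for all CPM values. These limits cover counting error only. The tissue labels were checked with defining genes. The germ cell gene *Ddx4* was at 707 to 801 CPM in the testis and at most 2.42 CPM in the epididymis, whereas the IS genes *Lcn8* and *Lcn9* had at most 32 counts and 3 counts in the testis samples. In the caput *Lcn8* varied from 26.9 to 1087 CPM between samples, and the fitted ArKI differences in the caput are also given without the 3 samples richest in it and in *Lcn9*. Each difference between testis and epididymis is also one between sequencing runs, and these cannot be told apart.

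The promoter sequences show how unlike the members are in CpG content. In RefSeq sequence of the GRCm38.p6 build, 7 of the 10 members had an entry covering the 250 bases before the start of transcription. *Id4* held 35 CG dinucleotides in these 250 bases, more than 97% of the 32851 promoters in the table have. *Kit* has entries for a pair of nearby starts, with 17 and 18 CG, more than 76.5% and 78.3% of promoters have, and *Nanos2* held 0, where the median over all promoters was 6. *Gfra1* held 10, *Lin28a* 7, *Stra8* 5 and *Nanos3* 3. The CG count did not order the members by how many tissues they were seen in. *Id4*, *Kit* and *Gfra1* had counts in every sample, but *Lin28a*, above the median, was at most at 1 count in the epididymis, and *Nanos3*, below it, was seen in both testis and caput. The extremes and the *Kit* entry with 17 are printed here, each less its bases in annotated exons. The *Kit* stretch has 179 of the 250 bases, so that it shows only part of the 17 CG. The stretches of the *Id4*, *Kit* and *Nanos2* promoters that lie outside annotated exons read as follows, 5′ to 3′ on the gene's own strand, with each CG in capitals. They are chr13:48260866-48261115 (plus strand) for *Id4*, chr5:75574737-75574915 (plus strand) for *Kit* and chr7:18987274-18987399 (plus strand) for *Nanos2*.
Id4: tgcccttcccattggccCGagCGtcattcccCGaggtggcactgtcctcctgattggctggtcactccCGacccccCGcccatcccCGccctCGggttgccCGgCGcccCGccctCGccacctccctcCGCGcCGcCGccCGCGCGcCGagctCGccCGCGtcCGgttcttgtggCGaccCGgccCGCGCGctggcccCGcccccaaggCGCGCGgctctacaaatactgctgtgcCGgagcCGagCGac
Kit: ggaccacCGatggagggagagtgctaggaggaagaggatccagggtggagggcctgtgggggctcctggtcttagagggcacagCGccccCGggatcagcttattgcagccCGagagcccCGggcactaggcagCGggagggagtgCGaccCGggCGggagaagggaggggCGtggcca
Nanos2: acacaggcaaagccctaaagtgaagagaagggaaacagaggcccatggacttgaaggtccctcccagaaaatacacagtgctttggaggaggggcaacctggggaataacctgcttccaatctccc

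*Stra8* is a classical retinoic acid target, and its promoter was searched for AGGTCA, the hexamer bound by retinoic acid and related receptors, on both strands. It held 2 copies on the plus strand, at 194 to 189 and at 38 to 33 bases before the start. They lie in chr6:34920742-34920771 and chr6:34920898-34920927 and are shown with their 12 neighbouring bases on each side, the hexamer in capitals. The whole searched stretch lies inside annotated exons, and the GENCODE start of *Stra8*, chr6:34920163, is upstream of both copies.
Stra8, upstream copy: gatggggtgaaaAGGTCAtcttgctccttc
Stra8, downstream copy: gcctggggtaccAGGTCAgttttttacctg
None of the other 6 members with an entry held this hexamer, which is found in 14% of all promoters of the table. AGAACA, the hexamer of the androgen response element, was found on neither strand in any of the 7 promoters, and in 16.1% of all promoters. A match of letters is a description of the sequence and does not show that a receptor binds there.

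In the WT testis 9 of the 10 genes were measured above the floor, and their levels spanned more than an order of magnitude. Levels are given as CPM per kilobase of exon, so that genes can be compared. *Dmrt1*, a transcription factor of spermatogonia and Sertoli cells that holds back meiosis, was at 13.9 ± 0.653 (SD, n = 3). *Stra8* was at 11.9 ± 0.709 and *Id4*, an inhibitor of helix-loop-helix factors, at 10.3 ± 0.599. *Kit* followed at 7.76 ± 0.634 and *Lin28a*, an RNA-binding protein of undifferentiated spermatogonia that blocks let-7 maturation, at 2.23 ± 0.0855. The samples of each of these 5 genes did not overlap those of the next in order. The 4 genes below them lay close together: *Nanos3*, an RNA-binding protein, at 1.29 ± 0.237, *Zbtb16*, a transcriptional repressor, at 1.16 ± 0.0354, *Gfra1* at 1.15 ± 0.100 and *Sall4*, a zinc finger transcription factor, at 1.10 ± 0.218, each overlapping its neighbours. *Nanos2*, the RNA-binding protein of the most primitive stem cells, had 0, 1 and 2 counts in the WT testes and 2, 0 and 3 in the ArKI testes, at or under the floor in every sample.

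Across the WT tissues *Sall4*, *Lin28a*, *Stra8* and *Dmrt1* were seen in the testis alone, *Id4* was highest in the testis, *Gfra1* was highest in the caput, and *Kit* and *Zbtb16* were at similar levels in all 3 tissues. The 4 genes of the testis alone had at most 2 counts in any epididymal sample of either genotype. Against the floor of 3 counts per library, the WT testis was at least 80.7-fold higher than the IS for *Dmrt1*, at least 43.2-fold higher for *Stra8*, at least 19.4-fold higher for *Lin28a* and at least 13.9-fold higher for *Sall4*. Against the caput the bounds were 93.8-fold for *Dmrt1*, 50.2-fold for *Stra8*, 22.6-fold for *Lin28a* and 16.1-fold for *Sall4*. With scaling by library size alone the lowest of these 8 bounds was 11.2-fold, for *Sall4* against the IS. These 4 passed the filter through the testis alone, so that their difference was given in advance and only the bounds are reported. Of the other 4 members with values fitted in all tissues, *Gfra1* and *Id4* were called between testis and IS and between testis and caput, at an adjusted p below 0.05 and a fold above 2 by edgeR's quasi-likelihood test, where the p-values of all genes were adjusted after Benjamini and Hochberg. The background was high: 69.8% and 69.6% of the 16402 genes tested were called likewise. Between IS and caput 1 member was called by this rule, as 22.4% of genes were, and 3 members at an adjusted p below 0.05 alone, as 64.4% of genes were.

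**Figure D1:**
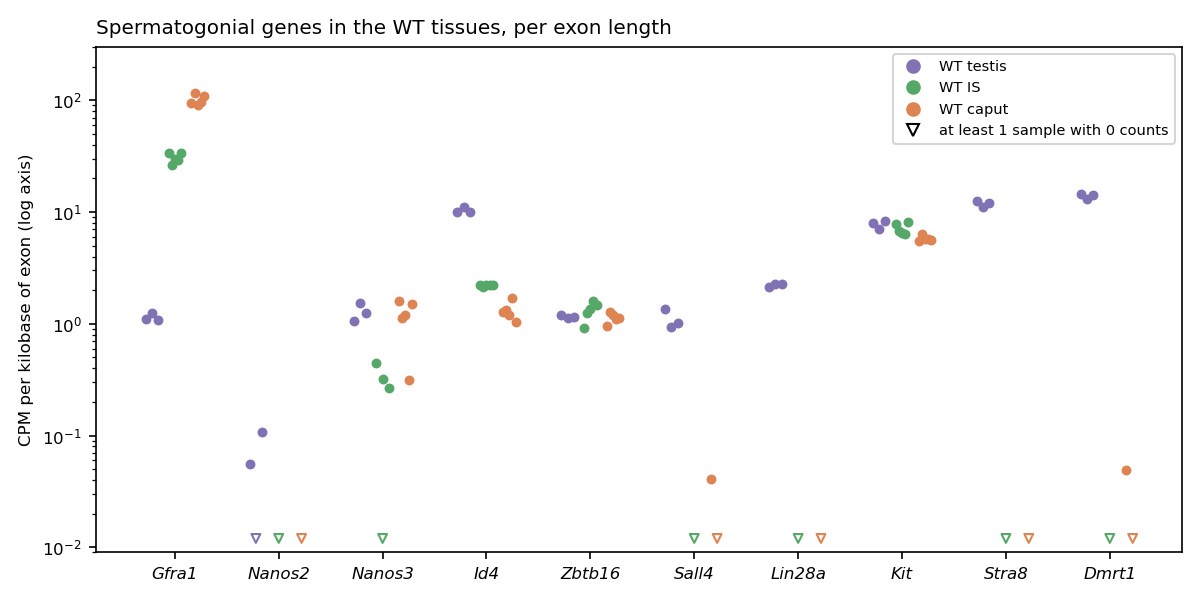
Level of each gene in the WT samples as CPM per kilobase of exon (log axis), 1 point per sample (3 testis, 5 IS, 5 caput); open triangles at the bottom mark groups with at least 1 sample at 0 counts. *Gfra1* rises from a mean of 1.15 in the testis to 30.5 in the IS and 102 in the caput, *Zbtb16* and *Kit* lie at similar heights in all 3 tissues, and *Sall4*, *Lin28a*, *Stra8* and *Dmrt1* have points in the testis and next to none elsewhere.

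*Gfra1* ran opposite to the genes highest in the testis. It was at 5.07, 5.86 and 5.02 CPM in the WT testis samples, at 157, 122, 138, 135 and 157 CPM in the WT IS and at 439, 541, 421, 447 and 511 CPM in the WT caput. No sample of one tissue overlapped those of another. On the log2 scale the WT testis minus the IS was -4.64 (standard error 0.13, adjusted p = 1.62e-16, edgeR) and minus the caput -6.39 (0.13, adjusted p = 1.70e-18, edgeR), and the IS minus the caput was -1.74 (0.08, adjusted p = 1.42e-12, edgeR). Over all genes the median difference between WT testis and IS moved with the scaling, from 0.19 with TMM factors to -0.22 with library size alone and -0.29 with upper-quartile factors, and the *Gfra1* differences are far outside that shift. Of its exons 416 bases overlap those of *Gm16277* on the other strand, exons of *Nanos2*, *Id4*, *Sall4* and *Lin28a* overlap antisense genes as well, and whether the reads were counted by strand is not stated.

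*Id4* was the testis-enriched member with clear epididymal expression. It was at 38.3, 42.5 and 38.7 CPM in the WT testis, at 8.50, 8.24, 8.60, 8.59 and 8.54 CPM in the WT IS and at 4.92, 5.07, 4.63, 6.58 and 3.99 CPM in the WT caput, with no overlap between tissues. The testis exceeded the IS by 2.32 on the log2 scale (standard error 0.10, adjusted p = 8.03e-17, edgeR) and the caput by 3.07 (0.11, adjusted p = 1.05e-18, edgeR), and the IS exceeded the caput by 0.75 (0.12, adjusted p = 9.41e-06, edgeR). *Nanos3* had 11 to 13 counts in the WT testis, 0 to 3 in the WT IS and 2 to 12 in the WT caput. Its mean in the WT testis was at least 2.33-fold above the IS floor, or 1.87-fold with scaling by library size alone, and its samples in testis and caput overlapped.

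For *Kit* and *Zbtb16* the WT tissues were close. *Kit* was at 40.8 ± 3.33 CPM (SD, n = 3) in the testis, 37.4 ± 4.42 (n = 5) in the IS and 30.4 ± 1.8 (n = 5) in the caput. All testis samples lay above all caput samples, by 0.51 on the log2 scale (standard error 0.09, adjusted p = 6.82e-06, edgeR), but with library size or upper-quartile scaling this call was lost. The direction between testis and IS (0.22, adjusted p = 0.0213, edgeR) turned under the same scalings, to -0.19 and -0.27, so that no order of these tissues is given. *Zbtb16* was at 5.95 ± 0.181 CPM (n = 3) in the testis, 6.74 ± 1.31 (n = 5) in the IS and 5.80 ± 0.601 (n = 5) in the caput. No difference between tissues was called for *Zbtb16* with TMM factors: testis minus IS was -0.08 (95% interval -0.41 to 0.25) and testis minus caput 0.12 (-0.20 to 0.45) on the log2 scale. IS minus caput was 0.20 (-0.09 to 0.50, adjusted p = 0.220, edgeR), or 0.32 without WT IS replicate 1, where it was called (adjusted p = 0.0428, edgeR). The signs of both testis differences depended on the scaling, and with library size alone or upper-quartile factors testis minus IS was -0.49 and -0.56 (adjusted p = 0.00576 and 0.00188, edgeR). For testis minus caput the lowest adjusted p over the alternatives was 0.0302 (edgeR), where the sign was reversed.

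The main comparison asked whether the altered receptor changed these genes in the testis. *Zbtb16* was higher and *Kit* was lower in ArKI testes, and the other 7 genes tested did not pass the test. With the study's thresholds for the testis, a fold change above 2 at an FDR below 0.2, 132 of 15838 genes (0.833%) were called and 0 of the 9 members tested, by edgeR, limma or DESeq2. Of these members 2 had an unadjusted p below 0.05 in edgeR. At an FDR below 0.05 with no limit on the fold, 311 genes (1.96%) were called, 259 higher and 52 lower, and the same 2 members were among them. Leaving out 1 library moved the lower calls most, to 121 without WT replicate 2, 21 without WT replicate 3, 27 without ArKI replicate 1 and 34 without ArKI replicate 2, with 165 to 268 higher calls over all 6 such fits. In 3 of the 9 members, *Zbtb16*, *Sall4* and *Kit*, the ArKI samples did not overlap the WT samples, as in 17.5% of all genes tested.

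**Figure D2:**
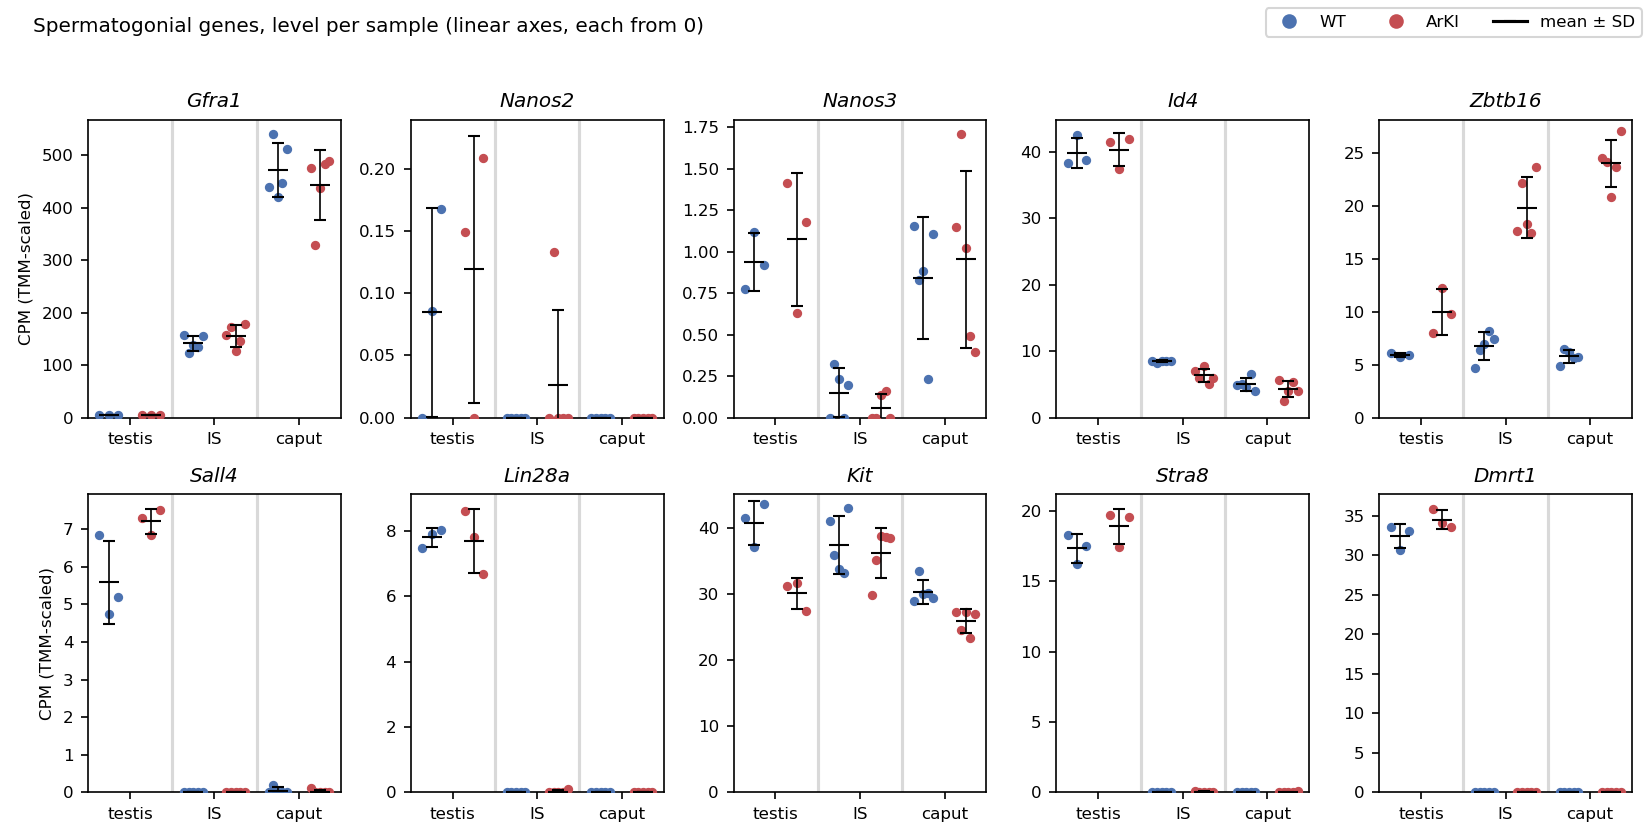
CPM of the 10 genes in each of the 26 samples (linear axes, each from 0; blue WT, red ArKI), with the mean and SD of each group as black bars. *Zbtb16* is higher in ArKI than in WT samples in all 3 tissues, with the widest gap in the caput, *Kit* is lower in the ArKI testis and caput, and the testis points of *Lin28a*, *Stra8*, *Dmrt1*, *Id4* and *Gfra1* overlap between genotypes.

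*Zbtb16* (chr9:48654297-48836222 of GRCm38, minus strand) had 87, 67 and 71 counts in the WT testes and 107, 213 and 141 counts in the ArKI testes. As CPM these were 6.13, 5.77 and 5.94 in WT and 7.96, 12.2 and 9.80 in ArKI samples. The WT samples were nearly equal and each ArKI sample lay above them, with replicate 2 the highest. The ArKI samples were higher by 0.73 on the log2 scale (standard error 0.15, adjusted p = 0.00833, edgeR), and 279 of the genes tested had a higher fold change. Without ArKI replicate 2 the log2 fold change was 0.56 and the call was lost (adjusted p = 0.113, edgeR).

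*Kit* (chr5:75574916-75656722, plus strand) moved the other way. It had 590, 431 and 521 counts in the WT testes and 420, 552 and 395 in the ArKI testes, which as CPM were 41.6, 37.1 and 43.6 in WT and 31.2, 31.7 and 27.5 in ArKI samples. The lowest WT testis was still above the highest ArKI testis. *Kit* fell by 0.46 on the log2 scale (standard error 0.09, 95% interval -0.65 to -0.28, adjusted p = 0.00486, edgeR), and 236 genes had a lower fold change. Without WT replicate 3 the log2 fold change was -0.41 with an adjusted p of 0.0657 (edgeR). Mast cells and Leydig cells also carry KIT. Leydig cell markers moved in the testis, with the values given beside the niche genes. Of 6 mast cell markers none passed the filter on low counts, with a summed level of 0.282 to 0.921 CPM in WT and 0.345 to 0.834 CPM in ArKI testes.

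*Sall4* was at 6.84, 4.74 and 5.19 CPM in the WT testes and at 7.29, 6.84 and 7.51 CPM in the ArKI testes. The highest WT and the lowest ArKI sample were nearly equal, and the log2 difference of 0.32 (standard error 0.16) did not pass the test (adjusted p = 0.387, edgeR). *Id4* was at 39.8 ± 2.31 CPM (SD, n = 3) in WT and 40.3 ± 2.5 in ArKI testes, a log2 difference of -0.01 (95% interval -0.18 to 0.16, adjusted p = 0.979, edgeR). The CPM were scaled over all 26 samples and the difference over the testis samples alone, so that their signs can differ this near to 0. *Gfra1* was at 5.32 ± 0.466 and 5.12 ± 0.663 CPM (n = 3 each), a log2 difference of -0.09 (95% interval -0.43 to 0.25, adjusted p = 0.871, edgeR). These intervals leave room for changes of modest size in either direction.

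*Stra8* and *Dmrt1*, unlike *Kit*, did not pass the test, and neither did the undifferentiated genes *Lin28a* and *Nanos3*. *Stra8* was at 17.4 ± 1.03 CPM (n = 3) in WT and 18.9 ± 1.26 in ArKI testes, a log2 difference with a 95% interval of -0.12 to 0.30 (adjusted p = 0.762, edgeR). For *Dmrt1*, at 32.5 ± 1.53 and 34.5 ± 1.24 CPM, the interval was -0.12 to 0.23 (adjusted p = 0.823, edgeR). For *Lin28a*, at 7.81 ± 0.30 and 7.71 ± 0.984 CPM, it was -0.33 to 0.24 (adjusted p = 0.930, edgeR). *Nanos3* had only 11 to 19 counts per testis, and its interval of -0.60 to 0.88 was the widest among the members (adjusted p = 0.913, edgeR). Of these 4 genes none was detectably changed at this depth. In simulated testis data edgeR called 51 of 66 genes changed by 1.5-fold and 60 of 67 changed by 2-fold at an FDR below 0.05. The changed genes were drawn at random from all genes tested. These rates do not describe the 4 genes here, and in particular not a gene with counts as low as *Nanos3*.

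**Figure D3:**
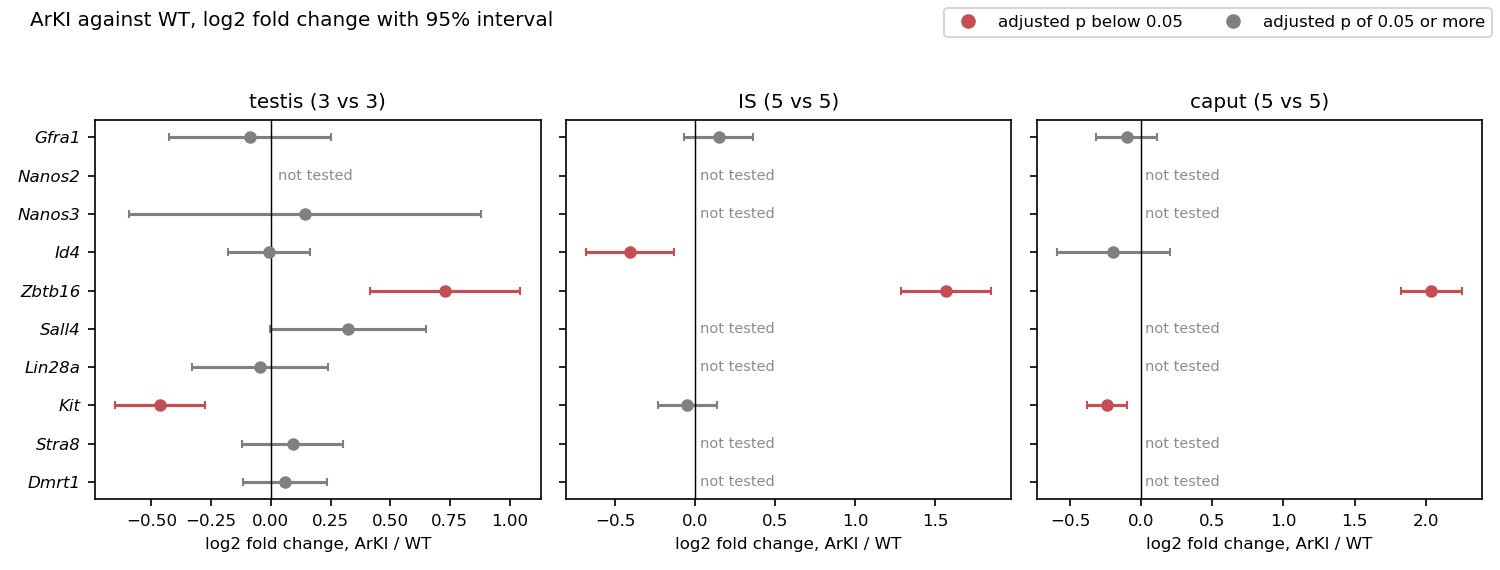
Log2 fold change of ArKI against WT with its 95% interval for each of the 10 genes in the testis, IS and caput (edgeR; red, adjusted p below 0.05; grey, 0.05 or more; genes with too few counts are marked as not tested). *Zbtb16* lies to the right of 0 in all 3 panels, at 0.73, 1.57 and 2.04, and *Kit* lies to the left of 0 in the testis (-0.46) and the caput (-0.24).

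In the epididymis, where no spermatogonia reside, 4 of the 10 genes had enough counts to be tested, *Gfra1*, *Id4*, *Zbtb16* and *Kit*. At the study's thresholds for these segments, a fold change above 2 at an FDR below 0.01, *Zbtb16* was the 1 member called in the IS, where 4.04% of 13434 genes were called, and the 1 member called in the caput, where 4.98% of 13726 genes were. At an FDR below 0.05 with no fold limit, *Id4* joined it in the IS and *Kit* in the caput, against backgrounds of 29.6% and 27.7% of genes. The same members were those whose groups did not overlap, which held for 20.2% of genes (IS) and 19.9% of genes (caput).

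*Zbtb16* was at 4.71, 6.40, 6.95, 8.18 and 7.46 CPM in the WT IS and at 17.6, 22.1, 18.3, 17.5 and 23.6 CPM in the ArKI IS. Every ArKI sample lay far above the highest WT sample. In the caput it was at 4.92, 6.51, 6.17, 5.65 and 5.76 CPM in WT and at 24.5, 24.1, 20.8, 23.6 and 27.0 CPM in ArKI samples, again without overlap. *Zbtb16* rose by 1.57 on the log2 scale in the IS (standard error 0.13, adjusted p = 3.65e-08, edgeR) and 2.04 in the caput (standard error 0.10, adjusted p = 3.87e-10, edgeR). A higher fold change was seen in the IS for 132 genes and in the caput for 81. Without the 3 caput samples richest in *Lcn8* and *Lcn9* the caput value was 2.11 (adjusted p = 8.77e-08, edgeR). Markers of other cells moved in these tissues too. In the IS all 4 endothelial markers and 3 of 6 macrophage markers fell, with a summed endothelial level of 80.5 to 106 CPM in WT and 57.1 to 74.0 CPM in ArKI samples. Of 6 markers of the epididymal epithelium 4 fell there and 1 rose. *Crisp1* fell by 2.58 on the log2 scale (adjusted p = 5.78e-05, edgeR), with *Cst8*, *Lcn8* and *Lcn9* at -0.57, -0.47 and -0.40. *Defb2* rose by 1.36 (adjusted p = 0.0176, edgeR), and *Adam28*, at 0.13, was not called. In the caput 1 of these 6 rose and none fell, with log2 differences from -2.01 to 1.33. *Prm2*, the 1 spermatid marker tested in the IS, fell there by 4.11 (adjusted p = 0.00209, edgeR). In the caput 4 of 7 spermatid markers, all that were tested, fell, from a summed 108 to 181 CPM in WT to 5.38 to 26.2 CPM in ArKI samples, and 1 of 4 endothelial markers rose, *Pecam1* (log2 fold change 0.42, adjusted p = 0.00626, edgeR), with *Cdh5*, *Vwf* and *Tek* at -0.01, 0.06 and 0.02. Their part in the results for *Zbtb16*, for *Id4* in the IS and for *Kit* in the caput was not tested.

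*Zbtb16* was the member called higher at an FDR below 0.05 in all 3 tissues, as were 54 of the 12232 genes tested in all of them (0.441%). The size of the effect differed between tissues. In a fit of all 26 samples the ArKI effect was smaller in the testis than in the IS by 0.81 on the log2 scale (standard error 0.21, adjusted p = 0.0103, edgeR) and smaller than in the caput by 1.29 (0.21, adjusted p = 4.57e-05, edgeR). The caput and IS effects differed by 0.48, which did not pass the test (0.19, adjusted p = 0.0858, edgeR) except without WT IS replicate 1 (adjusted p = 0.0271, edgeR). Such a difference between testis and IS was called in 11.8% of 16879 genes, 1160 positive and 831 negative, or 881 and 977 with scaling by library size alone. Between testis and caput it was called in 14% of genes, and between caput and IS in 13.2%.

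*Kit* in the caput was at 28.9, 33.5, 30.0, 30.1 and 29.5 CPM in WT and at 27.3, 24.6, 27.3, 23.4 and 27.0 CPM in ArKI samples. The groups did not overlap, and *Kit* fell by 0.24 on the log2 scale (standard error 0.07, adjusted p = 0.0125, edgeR), or by 0.27 without the 3 samples richest in *Lcn8* and *Lcn9* (adjusted p = 0.0448, edgeR). Mast cell markers were again too low to be tested in the caput, with a summed 1.14 to 3.57 CPM in WT and 0.229 to 1.71 CPM in ArKI samples. In the IS *Kit* was at 37.4 ± 4.42 CPM in WT and 36.2 ± 3.83 CPM in ArKI samples (SD, n = 5 each), a log2 difference of -0.05 (95% interval -0.23 to 0.13, adjusted p = 0.723, edgeR). The ArKI effect on *Kit* in the testis was below that in the IS by 0.38 (standard error 0.13, adjusted p = 0.0461, edgeR), a call that 12 of 29 alternatives removed. The testis and caput effects differed by -0.21 (95% interval -0.47 to 0.05, adjusted p = 0.320, edgeR).

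*Id4* was at 8.50, 8.24, 8.60, 8.59 and 8.54 CPM in the WT IS and at 7.01, 6.00, 7.72, 5.13 and 5.99 CPM in the ArKI IS. The WT samples were nearly equal and every ArKI sample lay below them. *Id4* fell by 0.40 on the log2 scale (standard error 0.13, adjusted p = 0.0254, edgeR), and without ArKI IS replicate 2, 4 or 5 the adjusted p was 0.0516, 0.0653 or 0.0549 (edgeR). In the caput its log2 difference was -0.20 (95% interval -0.59 to 0.20, adjusted p = 0.489, edgeR), or -0.06 without the 3 samples richest in *Lcn8* and *Lcn9* (adjusted p = 0.900, edgeR). The ArKI effects on *Id4* in testis and IS were not shown to differ (0.43, standard error 0.17, adjusted p = 0.107, edgeR). *Gfra1*, for all its abundance, did not pass the test in either segment. Its log2 difference was 0.15 in the IS (95% interval -0.07 to 0.36, adjusted p = 0.304, edgeR) and -0.10 in the caput (95% interval -0.32 to 0.11, adjusted p = 0.498, edgeR), or -0.17 without those 3 samples (adjusted p = 0.390, edgeR). *Nanos3* had 5 to 12 counts per sample in the ArKI caput, and an exact two-sided permutation test of its caput levels gave p = 0.786, where 252 assignments allow 0.00794 as the smallest p.

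Other genes of the same cells were read from lists of undifferentiated and differentiating spermatogonia and of niche and retinoid signals. Of 23 further genes of undifferentiated spermatogonia 17 were tested in the testis, 1 rose and none fell (edgeR, adjusted p below 0.05; 2 had an unadjusted p below 0.05). The median log2 difference over the 17 was 0.03, beside -0.0023 over all genes tested, of which 1.96% were called in either direction. The gene that rose was *Tspan8*, a tetraspanin of the cell surface used to enrich stem cells, which had 53, 43 and 30 counts in the WT and 191, 205 and 196 counts in the ArKI testes. It rose by 1.95 on the log2 scale (standard error 0.16, adjusted p = 2.93e-08, edgeR). In the IS it had 1 to 5 counts in WT and 11 to 18 counts in ArKI samples, a rise of 2.24 on the log2 scale (adjusted p = 9.23e-05, edgeR). In the caput, where it was not tested, it had 0 to 3 and 2 to 7 counts. The WT levels in both segments were about the floor of 3 counts. The pluripotency factor gene *Pou5f1* was at 6.66 CPM in WT and 5.42 CPM in ArKI testes (log2 difference -0.31, adjusted p = 0.434, edgeR). *Taf4b*, a TFIID subunit gene, gave -0.16 (adjusted p = 0.487, edgeR) and *Utf1*, a chromatin factor gene of early spermatogonia, 0.55 (adjusted p = 0.50, edgeR).

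All 12 genes of differentiating spermatogonia were tested in the testis and none was called (edgeR; 1 had an unadjusted p below 0.05, and their median log2 difference was 0.01). That gene was *Ccnd2*, the cyclin D2 gene, at 7.99 ± 1.14 CPM in WT and 11.2 ± 0.716 CPM in ArKI testes (SD, n = 3 each; log2 difference 0.47, adjusted p = 0.0694, edgeR). It was called under 4 of 15 alternatives, with adjusted p values from 0.0134 to 0.235 over all of them (edgeR at both ends). The X-linked homeobox gene *Esx1* gave -0.19 (adjusted p = 0.458, edgeR), and the meiotic chromosome genes *Rec8* and *Sycp3* gave -0.04 and 0.07 (adjusted p = 0.852 and 0.683, edgeR). Genes that follow the spermatogonial stage were as close. None of 7 spermatocyte and none of 7 spermatid markers was called in the testis, with median log2 differences of -0.02 and 0.08, and none of 8 Sertoli cell markers was (unadjusted p below 0.05 in 0, 1 and 1 of them).

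Of the 17 niche and retinoid genes 15 were tested in the testis, 2 rose and none fell (edgeR, adjusted p below 0.05; 6 had an unadjusted p below 0.05), and the median log2 difference was 0.22, beside 1.96% called and a median of -0.0023 over all genes. *Aldh1a2*, which encodes a retinaldehyde dehydrogenase that makes retinoic acid, was at 163, 149 and 144 CPM in WT and at 205, 201 and 190 CPM in ArKI testes. The groups did not overlap, and *Aldh1a2* rose by 0.36 on the log2 scale (standard error 0.07, adjusted p = 0.00244, edgeR). *Igf1*, which encodes a growth factor made by Leydig and Sertoli cells, was at 10.6, 11.9 and 13.5 CPM in WT and at 19.1, 20.1 and 19.0 CPM in ArKI testes. It rose by 0.67 on the log2 scale (standard error 0.11, adjusted p = 0.000614, edgeR), and it also rose in the IS (1.27, adjusted p = 6.74e-06, edgeR) and caput (1.41, adjusted p = 2.31e-05, edgeR). Genes of the list moved in both directions in the epididymis: of 14 genes tested in each segment 2 rose and 6 fell in the IS, and 4 rose and 4 fell in the caput (edgeR, adjusted p below 0.05), where 29.6% and 27.7% of all genes were called.

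**Figure D4:**
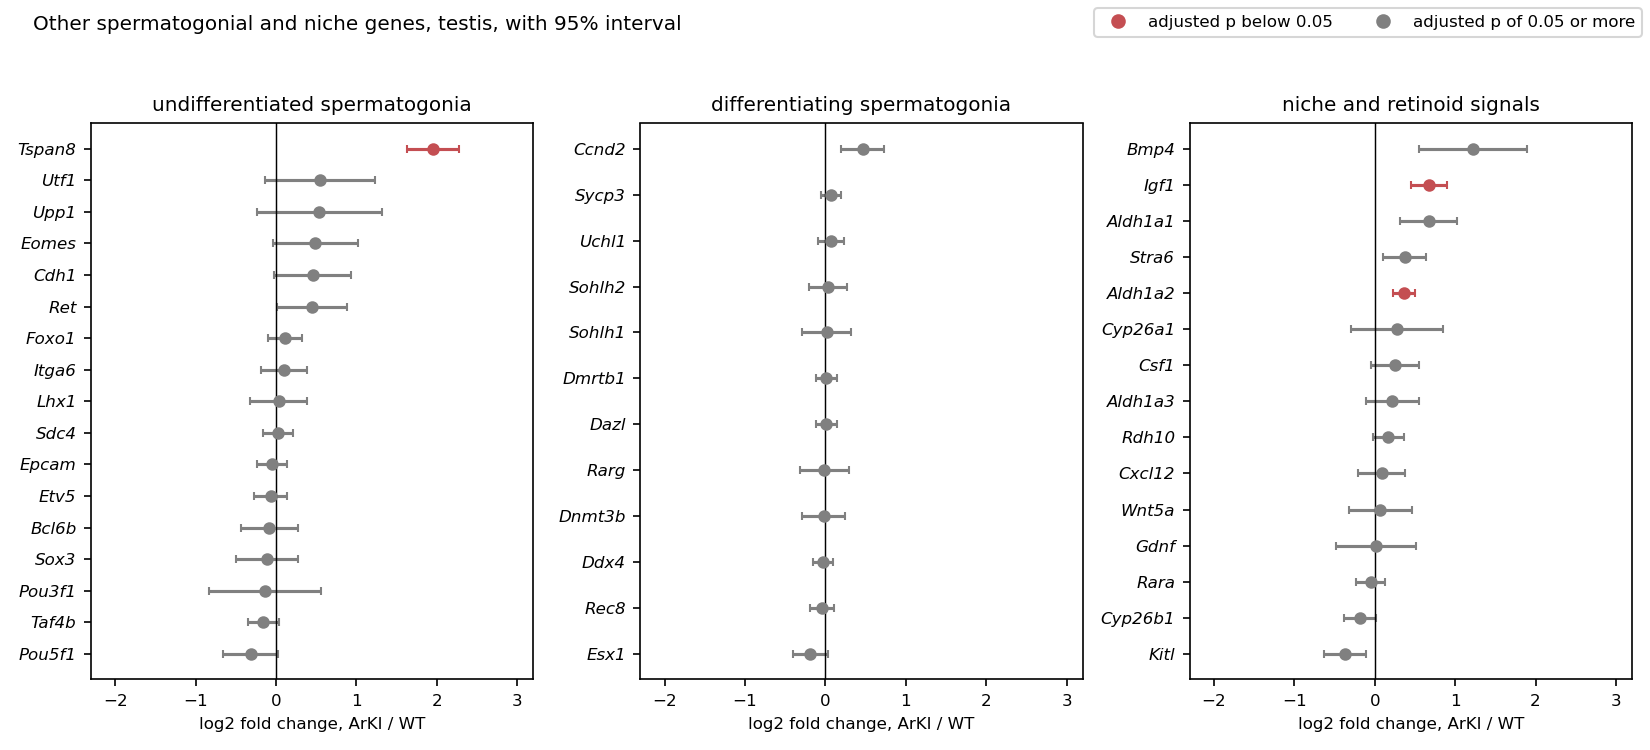
Log2 fold change of ArKI against WT testes with its 95% interval for the tested genes of 3 lists (edgeR; red, adjusted p below 0.05). *Tspan8*, *Igf1* and *Aldh1a2* are in red to the right of 0, and the 12 genes of differentiating spermatogonia lie between -0.19 and 0.47.

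*Kitl*, the gene of the KIT ligand, was at 39.8, 28.9 and 28.7 CPM in the WT testes and at 24.0, 24.1 and 29.1 CPM in the ArKI testes. The groups overlapped and its log2 difference of -0.37 (standard error 0.12) did not pass the test (adjusted p = 0.173, edgeR). *Bmp4*, the gene of a bone morphogenetic protein, gave 1.22 (adjusted p = 0.0528, edgeR; 0.0071 to 0.286 over the alternatives) from a level of 0.939 CPM in WT. *Cyp26b1*, which encodes an enzyme that breaks retinoic acid down, gave -0.18 (adjusted p = 0.426, edgeR). In the IS *Kitl* fell by 0.58 (adjusted p = 0.000775, edgeR) and *Cyp26b1* fell by 1.76 on the log2 scale (adjusted p = 0.00106, edgeR), and in the caput *Kitl* was at -0.06 (adjusted p = 0.794, edgeR) and *Cyp26b1* fell by 1.26 (adjusted p = 0.000558, edgeR). Leydig cell markers moved beside these genes: 2 of 6 rose, *Cyp11a1* by 0.92 and *Cyp17a1* by 0.59 on the log2 scale (adjusted p = 1.05e-06 and 4.35e-05, edgeR), whereas *Star* gave 0.33, *Insl3* 0.02, *Hsd3b6* -0.28 and *Lhcgr* -0.29, none of them called. The summed level of the 6, most of it from *Cyp11a1* and *Cyp17a1*, was 645 to 875 CPM in WT and 1094 to 1149 CPM in ArKI testes. The macrophage marker *C1qb* rose as well (0.49, adjusted p = 0.0290, edgeR), 1 of 6 on its list. The others were not called: *Cd68* gave 0.49, *C1qa* 0.44, *Csf1r* 0.24, *Mrc1* -0.05 and *Emr1* -0.16. Of the 6 macrophage markers 4 had an unadjusted p below 0.05 (edgeR). The part of these cells in the results for *Zbtb16*, *Kit*, *Tspan8*, *Igf1* and *Aldh1a2* was not tested.

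The genes most like each member over the 26 samples, by Pearson's r of log2(CPM + 0.5), differed in how specific they were. For *Zbtb16* they were *Chodl* (r = 0.92) and *Igf1* (r = 0.92), and *Igf1* was at 12, 16.2 and 17.5 CPM in WT and 19.4, 38.8 and 47.7 CPM in ArKI testis, IS and caput. For *Kit* they were *Dmxl2* (r = 0.81) and *Ccl28* (r = 0.81). For *Gfra1* they were *Tbx3* and *Galnt12* (r = 1.00 each, with 1503 genes above 0.95), and for *Id4* *Kif3b* and *Abcf1* (r = 0.98 each, with 1333 genes above 0.95). *Nanos3* was most like *Hoxc9* and *Ormdl3* (r = 0.88 each). *Sall4*, *Lin28a*, *Stra8* and *Dmrt1* had between 4323 and 4468 genes each with an r above 0.95. The samples of a group share tissue, run and genotype, and genes found in the testis alone all follow this pattern. No gene other than the member itself had an r above 0.95 with *Zbtb16*, *Kit* or *Nanos3*.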

How the data were processed

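RNA of whole testis, IS and caput was sequenced as 50-base reads by the authors, who aligned them to mm10 and counted the reads on each RefSeq gene (per the labels, Subread 1.5.1 and bcl2fastq 1.8.4). The deposited values are raw counts of 23337 genes per sample, with no normalization. The library kit is named differently in the labels and the methods (TruSeq v2 or stranded), and whether counting used strand is not given in the sources used here, so reads of a gene and its antisense partner cannot be told apart. The testis samples are of 3 mice per genotype and both epididymal segments of 5, per the methods; fits over both segments treat IS and caput samples as separate, and replicate numbers are only names. No 2 samples of the same group agreed within sampling noise.

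Members are the 10 listed symbols. The members and all gene lists were chosen with earlier results of these data known. Each tissue was fitted by itself in R 4.3.3 with edgeR 4.0.16 (filterByExpr with a minimum count of 10 and a total of 15, TMM factors, robust quasi-likelihood test, Benjamini-Hochberg adjustment over all genes tested), as were the 13 WT samples and all 26 samples for differences between tissues. Intervals are 95%. CPM used TMM factors over the 26 samples, and folds against groups with at most 3 counts per library were computed against 3 counts. Alternatives were limma 3.58.1 on voom values and DESeq2 1.42.0, other scalings and filters, a correction for exon length, the replicate number as a block and leaving out each replicate; those on the caput without IS-rich samples, on IS minus caput and part of those on the interaction were chosen after seeing the data. The study's ROTS test was not run. Exon lengths came from GENCODE vM21, for the members from its transcripts with a RefSeq match, to which 22843 of the genes were matched (20953 by symbol and 1890 by an older symbol). Named besides the members were, per list, the genes called in the testis and the 2 lowest and 2 highest fold changes. Also named were the 2 genes most like each of *Zbtb16*, *Kit*, *Gfra1*, *Id4* and *Nanos3*. Markers of tissues and other cells were named outside this rule, after their values were seen. On simulated data edgeR called 19 of 15531 unchanged testis genes, and 2 of 15713 when no gene was changed. Figures were drawn with matplotlib 3.10.9.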

Additional observations from a re-analysis of the deposited data

Results flagged for a closer look

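One sample stood apart from its group: *Kit* in WT caput replicate 2 was at 33.5 CPM, the highest of its group, with a gap to the next sample that passes Dixon's 95% limit. Of 18 groups examined 1 was so marked, and chance alone marks about 1 group in 20, or 0.9 here. Without that sample *Kit* in the caput fell by 0.20 on the log2 scale (adjusted p = 0.0404, edgeR).

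The ArKI effect differed between tissues for 2 of the genes by a test of the difference itself. For *Zbtb16* the effect in the testis minus that in the IS was -0.81 and minus that in the caput -1.29 on the log2 scale, and both kept an adjusted p below 0.05 (edgeR) under all 29 alternatives run, the highest being 0.0380 and 0.000339. For *Kit* the effect in the testis minus that in the IS was -0.38, with adjusted p values from 0.0135 to 0.134 (edgeR) over its 29 alternatives.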

How the results depend on the processing

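*Zbtb16* in IS and caput, *Kit* in the caput, and *Tspan8*, *Igf1* and *Aldh1a2* in the testis kept their direction and an adjusted p below 0.05 under all alternatives run for them. *Zbtb16* and *Kit* in the testis did so except without ArKI replicate 2 and without WT replicate 3, where 1 of the 2 members called at an FDR below 0.05 was left (range 1 to 2). In the IS leaving out replicates gave 1 to 2 members, for the interaction of testis and IS 1 to 2, for that of caput and IS 0 to 1, and for IS minus caput at a fold above 2, 1 to 2. Leaving out replicates gave 186 (without WT replicate 3) to 389 (without WT replicate 2) testis genes at an FDR below 0.05, where the main count was 311.

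With at least 10 counts in every sample fewer genes were tested, and the calls at each tissue's main thresholds were 75 in the testis (132 before), 350 in the IS (543), 311 in the caput (683), 6868 between WT testis and IS (11442) and 6861 between testis and caput (11415), each with 2 members in place of 6, since the 4 members seen in the testis alone were then not tested, and 1602 between IS and caput (3678). With every gene of at least 1 count there were 467 testis calls at an FDR below 0.05 and 2 members between IS and caput.

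Replicate numbers did not pair the samples: correlations of same-numbered deviations ranged from -0.014 to 0.053 in the testis and from -0.109 to 0.179 over the epididymal pairs of groups, and 1 of 3 testis numbers correlated best with its own. Between IS and caput, which share mice, correlations ranged from -0.0023 to 0.169 in WT with 3 of 5 numbers best with their own, and from -0.058 to 0.15 in ArKI samples with 2 of 5, and between the genotypes 2 of 5 did so in the IS and 1 of 5 in the caput. With the replicate number as a block, 3 members were called between WT IS and caput at an FDR below 0.05 and 0 for the interaction of caput and IS, the numbers found without it, 136 testis genes were called at the main thresholds and 305 at an FDR below 0.05, *Zbtb16* and *Kit* in the testis had adjusted p values of 0.0182 and 0.0164 (edgeR), and 1 in place of 2 members kept a difference between the testis and IS effects.

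Several values changed sign, not all of them near 0. *Id4* in the testis was 0.0088 with library size only, 0.013 with the length correction and 0.013 with block and length correction, and -0.041 to 0.055 when leaving out replicates. Leaving out replicates gave -0.17 to 0.035 for *Gfra1*, -0.14 to 0.043 for *Lin28a*, -0.10 to 0.46 for *Nanos3* and -0.097 to 0.032 for *Rec8* in the testis, and -0.086 to 0.015 for *Kit* in the IS. *Sycp3* was -0.0025 with the length correction and -0.0019 with the block added. In WT testis minus IS, *Kit*, at 0.22 with TMM factors, was -0.19 with library size only and -0.27 with upper-quartile factors. In the same contrast *Zbtb16* was 0.028 with RLE factors, 0.021 with at least 10 counts, 0.0078 with the replicate block and 0.028 in DESeq2. *Zbtb16* in WT testis minus caput was -0.27 with library size only, -0.0026 with every gene of at least 1 count and -0.37 with upper-quartile factors. The cause was not tested.

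With 3 samples a group the testis comparison cannot settle small changes of the low genes: *Nanos2* could not be tested and *Nanos3* rested on 11 to 19 counts. Testis and epididymis cannot be separated from their runs. *Utf1* was not tested with at least 10 counts in every sample.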
